A study of Mus musculus with 2 samples.

Results

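The Ly49 receptors are encoded by the Klra genes, which lie side by side in a cluster on mouse chromosome 6. The genes described here are Klra2, Klra3, Klra4, Klra7, Klra8, Klra9, Klra10, Klra15, Klra16 and Klra20, 10 genes in all. On the arrays they were represented by 17 of 41174 gene probes. Of these, 13 carried one of the 10 names in the scanner files and covered 9 genes. No probe bore the name Klra4, and 3 probes named Klra22, Klra12 and Klra18 in the files were assigned to Klra4, and 1 probe named Klra23 to Klra7, through another RefSeq transcript listed for the probe. The genes were picked with their ratios on these same 2 arrays in view, so their values are given as a description and no test is given for them.

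Each of the 2 arrays set RNA of autoreactive immature B cells, labelled with Cy5, directly against RNA of non-autoreactive ones, labelled with Cy3. Both kinds of cell were pooled bone marrow cells of untreated 3-83Igi mice, whose B cells express a knock-in receptor against H-2b class I proteins, sorted as positive for B220 and negative for CD23, CD43 and IgD. The autoreactive cells came from BALB.B mice of the H-2b haplotype with a Rag1-/- genotype, and the non-autoreactive cells from BALB/c mice of the H-2d haplotype, for which the labels list no Rag1 change; ages are not stated. Strain, H-2 haplotype, the Rag1 disruption and the dye therefore followed the groups and cannot be told apart from autoreactivity. The labels number the autoreactive pools but not the non-autoreactive ones, and leave the pooled animals unnamed, so p-values measure the spread between these 2 arrays, which may be technical. In pooled cells, fewer cells of a type and less RNA per cell cannot be told apart.

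Ly49 proteins are lectin-like receptors known mainly from natural killer (NK) cells, where they bind class I molecules or viral proteins that resemble them. Inhibitory members carry a tyrosine motif that recruits phosphatases such as SHP-1, and activating members signal through the adaptor DAP12. The number and kind of Klra genes differ between inbred mouse strains, and the genes are so alike that a probe for one can bind transcripts of another. Which of the genes named here the BALB.B and BALB/c mice carry was not tested. A gene name below therefore stands for the probes assigned to it, and a raised probe does not show that the named receptor is made. Class I molecules are also the antigen that the autoreactive B cells recognise.

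The likeness of the genes is visible in promoter sequences of a reference assembly. Whether the BALB.B and BALB/c mice measured here carry the same sequences was not tested. RefSeq windows of assembly GRCm38.p6, from 250 bases before to 50 bases after each annotated start, were available for 7 of the 10 genes and for 11 Klra genes in all. Klra15, Klra16 and Klra20 had none. A run of 11 bases, TTTCCTCTTTT, stood in the windows of 6 of the 7 members and of 8 of the 11 Klra genes, on either strand, against 0.149% of 32851 windows of all genes. A run of 9 bases, AGGAGGGGC, stood in 5 of the 7 members and 8 of the 11 Klra genes, against 1.78% of all windows. Both runs were found by comparing these windows with each other, so their frequency among Klra genes is a description. The stretches below hold 60 bases before the first run and 100 bases in all, with the runs in capitals, and are shown for the 6 members with the first run and for Klra6, whose probe was not well above background on these arrays.
Klra4, chr6:130067311-130067410, minus strand: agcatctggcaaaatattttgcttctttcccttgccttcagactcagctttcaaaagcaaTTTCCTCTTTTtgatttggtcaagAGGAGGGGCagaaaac
Klra8, chr6:130129939-130130038, minus strand: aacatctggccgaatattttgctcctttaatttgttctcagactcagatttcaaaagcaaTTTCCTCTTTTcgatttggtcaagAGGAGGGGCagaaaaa
Klra7, chr6:130233372-130233471, minus strand: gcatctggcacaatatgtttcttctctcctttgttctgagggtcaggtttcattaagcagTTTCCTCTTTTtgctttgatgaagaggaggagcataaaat
Klra3, chr6:130337606-130337705, minus strand: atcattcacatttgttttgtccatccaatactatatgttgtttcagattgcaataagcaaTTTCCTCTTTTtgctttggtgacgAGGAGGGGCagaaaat
Klra9, chr6:130193111-130193210, minus strand: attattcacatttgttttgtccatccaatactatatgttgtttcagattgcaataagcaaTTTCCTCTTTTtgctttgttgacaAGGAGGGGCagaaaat
Klra2, chr6:131247394-131247493, minus strand: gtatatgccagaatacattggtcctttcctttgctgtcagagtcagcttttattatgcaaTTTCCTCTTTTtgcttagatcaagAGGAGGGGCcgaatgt
Klra6, chr6:130027034-130027133, minus strand: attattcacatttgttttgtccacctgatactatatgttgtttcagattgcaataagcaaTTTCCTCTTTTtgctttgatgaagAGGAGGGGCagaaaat

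In 6 of these 7 genes 13 bases lay between the runs. The Klra7 window did not hold the letters of the second run. The stretches were lined up at the first run and compared base by base without gaps, so an inserted or lost base can lower the count. By this count Klra9 and Klra3 shared 97 of the 100 bases, Klra6 shared 94 with each of them, and Klra4 and Klra8 shared 87. Klra7 and Klra2 shared 75, and other pairs among these 7 genes shared between 50 and 63. The letters TATAAA stood in the windows of 5 of the 7 members, against 13.6% of all windows. Short core letters of motifs bound by factors known from NK cells were searched on both strands as well. CTTTGA (Tcf and Lef factors) stood in 1 of the 7 members, Klra7, against 16% of all windows. TGTGGT (Runx factors), TCACAC (T-box factors) and GGAAGT (Ets factors) stood in 0 of the 7, against 16.8%, 14.5% and 23.8%. A missing match says only that these letters are not in this window. The first run holds GGAA, the start of GGAAGT, on its other strand, so the 0 for Ets factors holds for GGAAGT as a whole only.

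On each array 43379 gene spots were read. In each channel 54.1% to 57.4% of them lay well above background, and none was saturated. Precision is limited by having 2 arrays. A probe entered the test if on each array 1 channel or both lay well above background, which 22623 probes of 15111 genes met. By limma's adjusted p 6.09% of these genes differed between the groups. All 14 genes of the B lineage list were above background in both channels on both arrays. Ratios below are log2 of autoreactive over non-autoreactive after background correction and loess normalization, and each error is the SE that limma gave (n = 2 arrays). The fit had 1 residual degree of freedom against a prior of 5.08, so the spread of all probes weighs most in an SE. Intensities are normalised linear values, comparable between groups for 1 probe but not between probes.

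Of the 17 member probes 16 were tested, all but the one named Klra18. Of the 16, 15 had a higher signal in the autoreactive cells on both arrays and 1, for Klra20, a lower one. A ratio above 0 on both arrays was found for 36.8% of all tested probes. The median member probe had a log2 ratio of 1.03 on array 1 and 1.49 on array 2, against 0.01 and 0.00065 for all tested probes. At least 2-fold more signal on both arrays was seen for 8 member probes, which stand for 5 genes, namely Klra16, Klra4, Klra7, Klra15 and Klra8. The background for that count was 0.831% of all probes and 1.01% of all genes, and nothing is read from it because the genes were picked on these ratios. By the mean ratio of its brightest probe, Klra16 ranked 2 among the 15111 genes, Klra7 ranked 5 and Klra15 ranked 10. The rank of 3 for Klra4 rests on the probe named Klra22 alone, a current synonym of Klra1, and the other probes assigned to Klra4 were 3.04-fold higher and not well above background. Klra8 ranked 81, Klra3 243, Klra10 711, Klra9 971, Klra2 2454 and Klra20 14860.

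**Figure D1:**
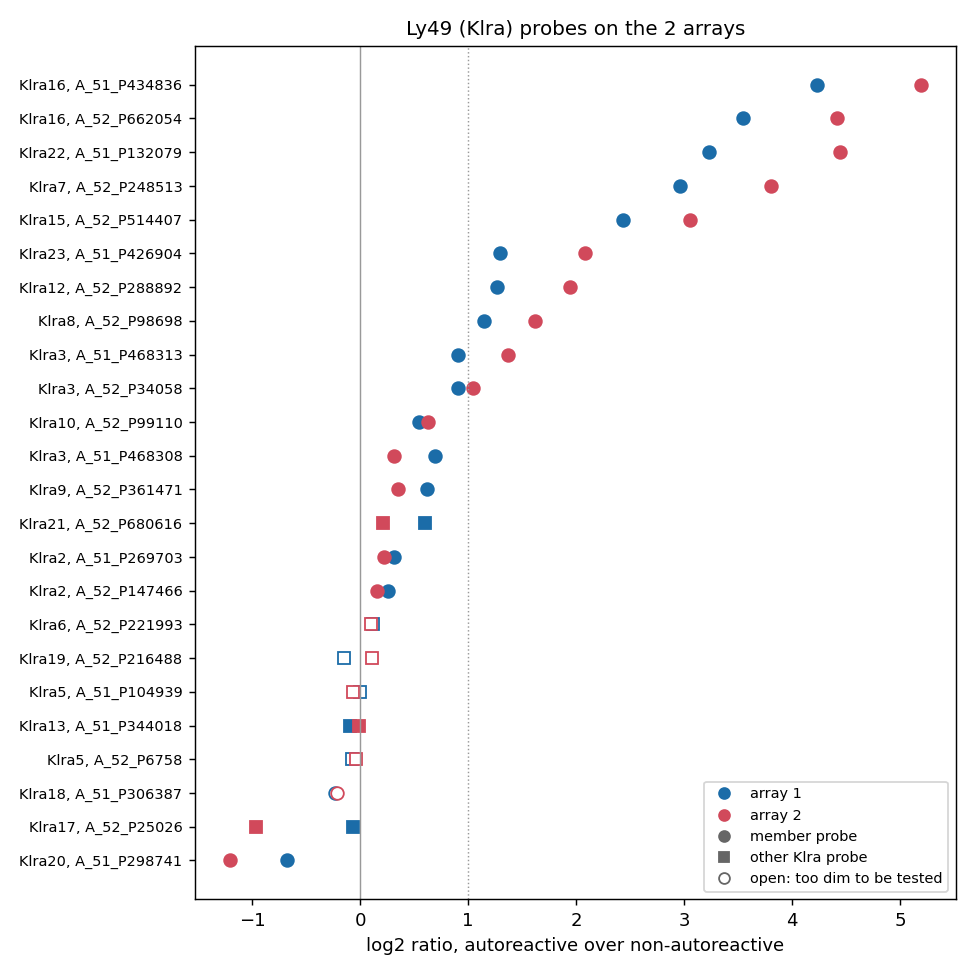
Log2 ratio of autoreactive over non-autoreactive cells (x axis) for each of the 24 Klra probes, labelled with the name in the files, on array 1 (blue) and array 2 (red); circles are member probes, squares other Klra probes, open symbols probes too dim to be tested, and the dotted line marks a 2-fold ratio. The 8 uppermost probes lie right of the dotted line on both arrays, and the Klra20 probe lies left of 0 on both.

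Klra16 encodes Ly49P, an activating receptor known from strains other than C57BL/6. Whether the BALB.B and BALB/c mice measured here carry Klra16 was not tested. Its probe A_51_P434836 (chr6:130437536-130437595 by the files' own coordinates, whose genome build is not given there) read 313 and 355 in the non-autoreactive cells on arrays 1 and 2, and 5882 and 12998 in the autoreactive cells. The 2 groups were far apart on both arrays, and the log2 ratios of 4.23 and 5.19 gave a mean of 4.71 ± 0.23, or 26.2-fold. This probe also lists a transcript of Klra1. The second probe, A_52_P662054, lies nearby (chr6:130437310-130437369) and lists Klra16 alone. It read 750 and 949 in the non-autoreactive cells against 8766 and 20252 in the autoreactive cells, with a mean log2 ratio of 3.98 ± 0.21, or 15.8-fold. Both Klra16 probes therefore gave the same order of groups on both arrays.

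Klra4 encodes Ly49D, an activating receptor that signals through DAP12. The probe named Klra22 in the files, A_51_P132079, has no position there. It lists transcripts of Klra22, Klra4 and Klra18 and 1 more that the RefSeq table does not name. Klra22 is now a synonym of Klra1, which is not among the 10 genes, so the value is that of the probe and not of Klra4 alone. It read 175 and 185 in the non-autoreactive cells and 1638 and 4020 in the autoreactive cells. Its log2 ratios were 3.23 and 4.45, with a mean of 3.84 ± 0.27 (14.3-fold). The probe named Klra12, A_52_P288892 (chr6:130079582-130079641), which lists Klra12, Klra4 and Klra15 transcripts and the same unnamed one, read 340 and 391 against 818 and 1503, a mean log2 ratio of 1.60 ± 0.18. The probe named Klra18, A_51_P306387, was not well above background in either channel on either array, at 75.9 and 72.6 against 64.5 and 62.7, and gets no ratio. The 3 probes that could bind Klra4 transcripts thus ran from not well above background to 14.3-fold, and which of the listed genes gave the signal cannot be told from these arrays.

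Klra7 encodes Ly49G, an inhibitory receptor for H-2D molecules of the H-2d haplotype. Its own probe, A_52_P248513 (chr6:130245389-130245542), read 889 and 924 in the non-autoreactive cells and 6930 and 12941 in the autoreactive cells. The log2 ratios of 2.96 and 3.81 gave a mean of 3.39 ± 0.21, or 10.4-fold. A second probe assigned to it, named Klra23 in the files (A_51_P426904, chr6:130250722-130250781, listing Klra23, Klra13 and Klra7 transcripts), read 615 and 603 against 1510 and 2555, a mean log2 ratio of 1.69 ± 0.20. The groups were apart on both arrays with either probe, by a larger factor for the probe that lists Klra7 alone.

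Klra15 had 1 probe (chr6:130339680-130339738). It read 387 and 497 in the non-autoreactive cells and 2088 and 4137 in the autoreactive cells, with log2 ratios of 2.43 and 3.06 and a mean of 2.74 ± 0.18 (6.70-fold). Klra8 encodes Ly49H, the activating receptor that recognises a protein of mouse cytomegalovirus in C57BL/6 mice. Its probe (chr6:130148755-130151686) also lists a transcript that the RefSeq table does not name. It read 492 and 657 against 1088 and 2018, a mean log2 ratio of 1.38 ± 0.15 (2.61-fold), the smallest among the 5 genes past 2-fold on both arrays.

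**Figure D2:**
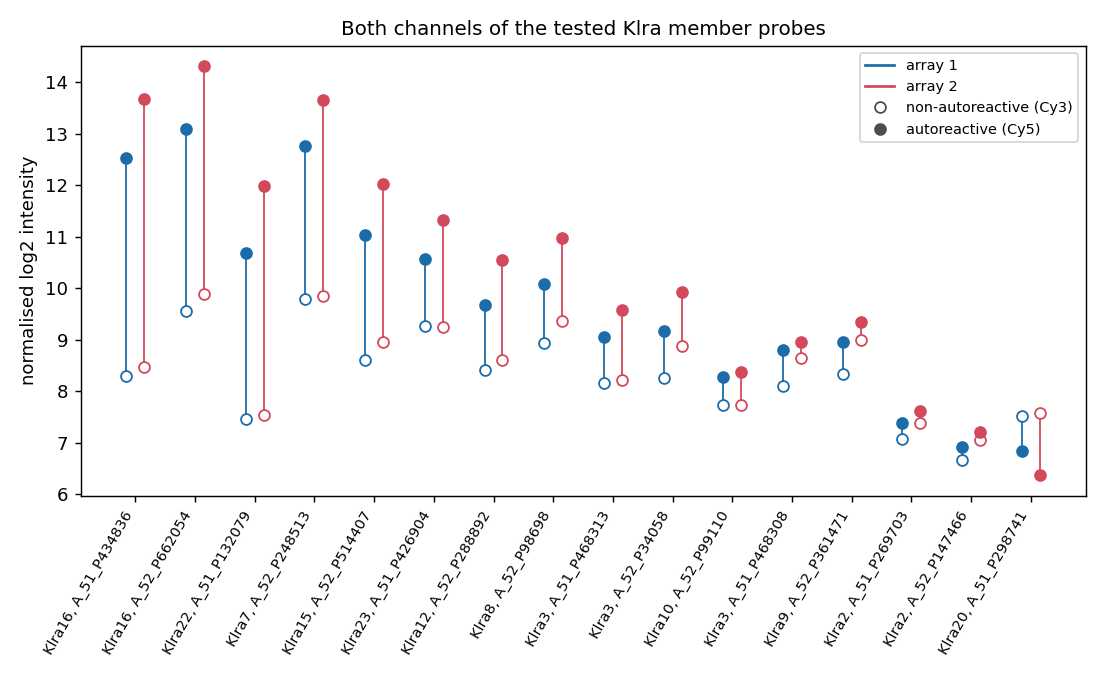
Normalised log2 intensity (y axis) of the 16 tested member probes in the non-autoreactive (Cy3, open circles) and autoreactive (Cy5, filled circles) channel, with a line joining the channels of array 1 (blue) and array 2 (red). For the probe of Klra16 at the left the autoreactive channel stood at 12.52 on array 1 and 13.67 on array 2 while the non-autoreactive channel stood at 8.29 and 8.47.

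Klra3, Klra9 and Klra10 formed a middle group. Klra3 encodes Ly49C, an inhibitory receptor with H-2K molecules of the H-2b haplotype among its ligands, and had 3 probes. Probe A_51_P468313 (chr6:130406561-130406620), which also lists Klra10, Klra9 and Klra6, read 284 and 297 in the non-autoreactive cells and 529 and 764 in the autoreactive cells, a mean log2 ratio of 1.13 ± 0.15. Probe A_52_P34058 (chr6:130406632-130407552), which also lists a transcript that the RefSeq table does not name, read 307 and 471 against 576 and 973, a mean of 0.98 ± 0.12. Probe A_51_P468308 (chr6:130396773-130396832) lists Klra3 alone and read 276 and 399 against 447 and 497, a mean of 0.51 ± 0.14. All 3 Klra3 probes were higher in the autoreactive cells on both arrays, but A_51_P468308 less so on array 2 (0.32) than on array 1 (0.70).

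Klra10 (Ly49J; chr6:130352586-130352645) read 213 and 213 in the non-autoreactive cells and 309 and 330 in the autoreactive cells, with log2 ratios of 0.54 and 0.63 and a mean of 0.59 ± 0.12. Klra9 encodes Ly49I, an inhibitory receptor, and its probe (chr6:130212145-130212204), which also lists Klra21, read 323 and 511 against 497 and 652, a mean log2 ratio of 0.49 ± 0.13. The Klra10 ratio lay within the range of the 3 Klra3 probes and that of Klra9 just below it. By the count without gaps, the promoter stretches of Klra3 and Klra9 printed above are the most alike of all pairs.

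Klra2 encodes Ly49B, an inhibitory receptor known from myeloid cells more than from NK cells. It lies apart from the cluster, 856 kb beyond the last other member probe. Probe A_51_P269703 read 135 and 167 in the non-autoreactive cells and 168 and 195 in the autoreactive cells, a mean log2 ratio of 0.27 ± 0.12. Probe A_52_P147466 read 101 and 133 against 120 and 148, a mean of 0.21 ± 0.12, and was above background in the non-autoreactive channel on 1 of the 2 arrays. The 2 groups lay close together with both probes, and the non-autoreactive signal of array 2 came close to or exceeded the autoreactive signal of array 1.

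Klra20 (Ly49T) was the one member with less signal in the autoreactive cells. Its probe (chr6:130070534-130070583) read 184 and 191 in the non-autoreactive cells and 115 and 82.5 in the autoreactive cells, with log2 ratios of -0.68 and -1.21 and a mean of -0.94 ± 0.16. The autoreactive channel was above background on 1 of the 2 arrays, and the deposited ratios, computed by the scanner program, were -1.31 and -3.24 on the log2 scale.

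Without Klra2, the member probes with a position spanned 367 kb, from Klra20 at one end to Klra16 at the other. By the files' coordinates, high and low ratios alternated along this stretch. Whether these coordinates give the order of the genes in the mice measured here was not tested. The Klra16 probes lay beside the Klra3 probes, and the Klra15 probe (2.74) lay beside that of Klra10 (0.59). The Klra20 probe (-0.94) lay beside that named Klra12 (1.60).

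**Figure D3:**
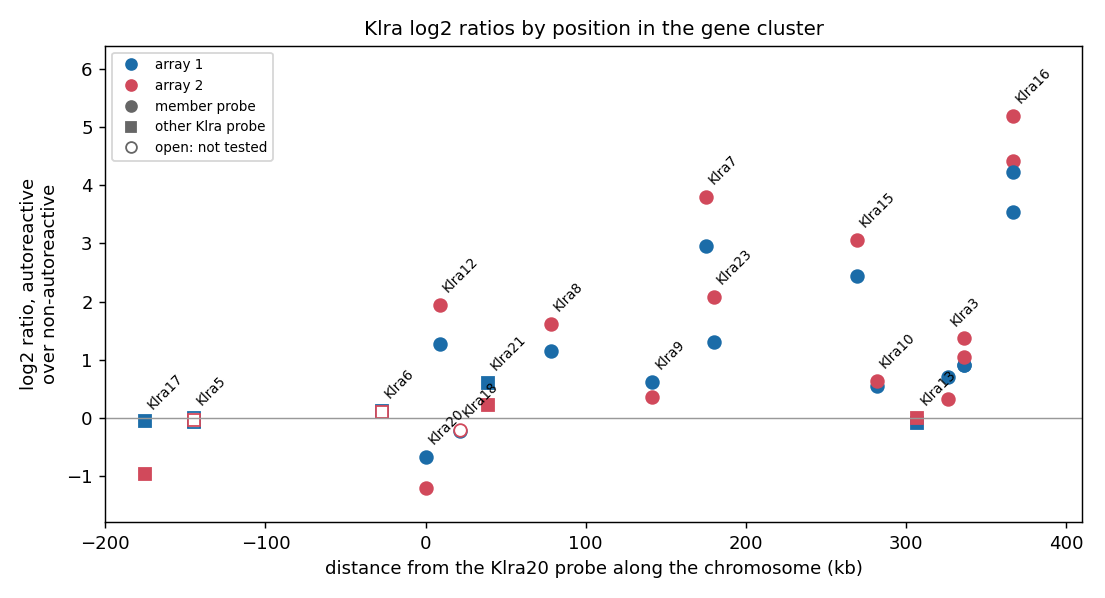
Log2 ratio of each positioned Klra probe within the cluster (y axis) against its distance in kb from the Klra20 probe along the chromosome (x axis), on array 1 (blue) and array 2 (red); circles are member probes, squares other Klra probes, open symbols probes not tested, and labels are the names in the files. By the files' coordinates, the largest ratios lie at several separate places, with probes near 0 between them, and Klra2, which lies farther away, is not drawn.

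Member probes often list transcripts of more than 1 Klra gene, up to 4 RefSeq transcripts a probe. The 8 tested probes that list 1 transcript had a median log2 ratio of 0.55, from -0.94 for Klra20 to 3.98 for Klra16. The 8 probes that list 2 or more had a median of 1.49, from 0.49 for Klra9 to 4.71 for Klra16. High ratios stood in both kinds of probe, and Klra16, Klra7 and Klra15 each have 1 probe that lists no other Klra gene. These lists are annotation, and which transcripts a probe binds was not tested.

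The 2 arrays differed in a common way for the strongly raised probes. All 8 probes past 2-fold on both arrays had a larger ratio on array 2, by 0.47 to 1.22 on the log2 scale. Their non-autoreactive level changed from array 1 to array 2 by -0.03 to 0.42, and their autoreactive level by 0.76 to 1.30. Over the 16 tested member probes the ratio was larger on array 2 for 11 and smaller for 5, and those 5 were Klra2 (2 probes), Klra9, Klra20 and Klra3 (A_51_P468308). Among all genes tested, 52.1% were lower on array 2 than on array 1.

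The other Klra genes had smaller ratios. Probes for 6 of them were on the arrays, and 3 were tested. Klra21 (Ly49U) had log2 ratios of 0.60 and 0.21 and a mean of 0.41 ± 0.14 (limma adjusted p = 0.169). Klra17 encodes Ly49Q, a receptor of plasmacytoid dendritic cells, and had -0.06 and -0.97, a mean of -0.52 ± 0.22 (limma adjusted p = 0.229). The pseudogene Klra13 had -0.10 and -0.01, a mean of -0.05 ± 0.12 (limma adjusted p = 0.826). By limma's adjusted p 0 of these 3 passed the threshold of 0.05, and at an unadjusted p under 0.05 1 was higher and 0 were lower. Over all genes 3.48% passed as higher and 2.61% as lower after adjustment, and 12.0% and 12.3% before it. With median centring Klra21 passed as higher, at 1.00 (limma adjusted p = 0.00117), against a median gene at 0.58. The probes of Klra5 (Ly49E, 2 probes), Klra6 (Ly49F) and Klra19 were not well above background in either channel on either array. The 5 genes outside the family whose pair of ratios was nearest to the members' median pair (1.03 and 1.33) by Euclidean distance over the 2 arrays were Iftap, Ifi27, Cubn, St3gal6 and Ddah2, at distances of 0.0179 to 0.0420.

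Other lectin-like receptor genes, many of which lie beside the Klra genes, were read as well. Of 31 such genes 17 were tested. By limma's adjusted p 3 rose and 0 fell, where 3.48% and 2.61% of all genes did. At an unadjusted limma p under 0.05, 3 were higher and 4 lower, where 12.0% and 12.3% of all genes were. Clec2d, a ligand of the NK receptor NKR-P1, rose by 1.22 ± 0.23 (limma adjusted p = 0.0380), with 0.75 on array 1 and 1.70 on array 2. Clec2i rose by 0.77 ± 0.13 (limma adjusted p = 0.0311) and Clec2g, named here after its values were seen, by 0.65 ± 0.12 (limma adjusted p = 0.0422). Without the filter on dim probes none of these 3 passed (limma adjusted p-values of 0.0537 to 0.102), Clec2d was also lost with the deposited ratios (limma adjusted p = 0.0622) and Clec2g without background correction (limma adjusted p = 0.0795). The NK receptor chain genes did not pass. Klrc1 (NKG2A) had -0.00 and -1.75, Klrd1 (CD94) -0.37 and -1.08 and Klrk1 (NKG2D) -0.18 and -1.26, with limma adjusted p-values of 0.231, 0.0901 and 0.163. The median of the 17 genes was 0.01 on array 1 and -0.82 on array 2. In the autoreactive channel 12 of the 17 were above background on both arrays. The others entered on at least 1 array through the non-autoreactive channel alone, which favours ratios below 0. With both channels required, the median of the 12 over both arrays was -0.05, and 6 of them lay below 0. With median centring the list's median over both arrays turned from -0.37 to 0.06, against 0.58 for all genes. Within 1 Mb of the member probes 17 non-Klra genes were tested, of which 3 rose, 0 fell and 0 were 2-fold higher on both arrays. Over all genes these shares were 3.48%, 2.61% and 1.01%.

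Because Ly49 receptors are known from NK cells, the other genes of that cell type were read beside them. Of 34 NK cell genes 27 were tested, and by limma's adjusted p 0 rose and 1 fell, where 3.48% and 2.61% of all genes did. At an unadjusted p under 0.05, 0 were higher and 10 lower, where 12.0% and 12.3% of all genes were. The gene that fell was Ccl5, a chemokine of NK and T cells, by 1.81 ± 0.35 on the log2 scale (limma adjusted p = 0.0438). This call was lost without background correction, with the deposited ratios, without the filter on dim probes, with a trended variance and with the mean over probes, at limma adjusted p-values of 0.0510 to 0.125. NK genes called lower then numbered 0, and with median centring 5. The list's middle gene stood at -0.03 on array 1 and -1.08 on array 2. A ratio above 0 was found for 9 of the 27 on array 1 and 1 on array 2, where 51.8% and 49.0% of all genes had one, and all 27 means lay below 0, from -1.81 to -0.08. For genes that entered on an array through the non-autoreactive channel alone, the filter favours such means. With both channels required to be well above background, 20 genes were tested, and all 20 lay below 0, with a median of -0.66. Relative to the median of all genes all 27 also lay below under each of the 4 other scalings run, and 20 of 27 lay below 0 itself with median centring, which puts the median gene at 0.58.

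The NK genes were present in both groups. All 27 were above background in the non-autoreactive channel on both arrays and 20 in the autoreactive channel. Their summed normalised intensity was 34917 and 39245 in the non-autoreactive cells and 27334 and 15934 in the autoreactive cells. In such a sum the brightest probes weigh most, and it does not measure the number of cells. Ncr1 (NKp46), the marker most particular to NK cells, read 500 and 634 in the non-autoreactive cells and 498 and 135 in the autoreactive cells, so that its log2 ratios were -0.01 and -2.23 (mean -1.12 ± 0.47, limma adjusted p = 0.222). Nkg7, a granule protein, had -0.14 and -1.33, Klrb1c (NK1.1) -0.04 and -0.70, and Prf1 (perforin) 0.12 and -1.06, with limma adjusted p-values of 0.179, 0.275 and 0.347. On array 1 these 4 markers were nearly level between the groups, while the log2 ratios of the 27 NK genes ran from -0.99 to 0.92. Klra16, Klra4, Klra7 and Klra15 were raised on that array. On array 2 the 4 markers were lower in the autoreactive cells, and the ratios of the same 4 Klra genes were higher than on array 1. The part of NK cells in the Klra signal was not tested.

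**Figure D4:**
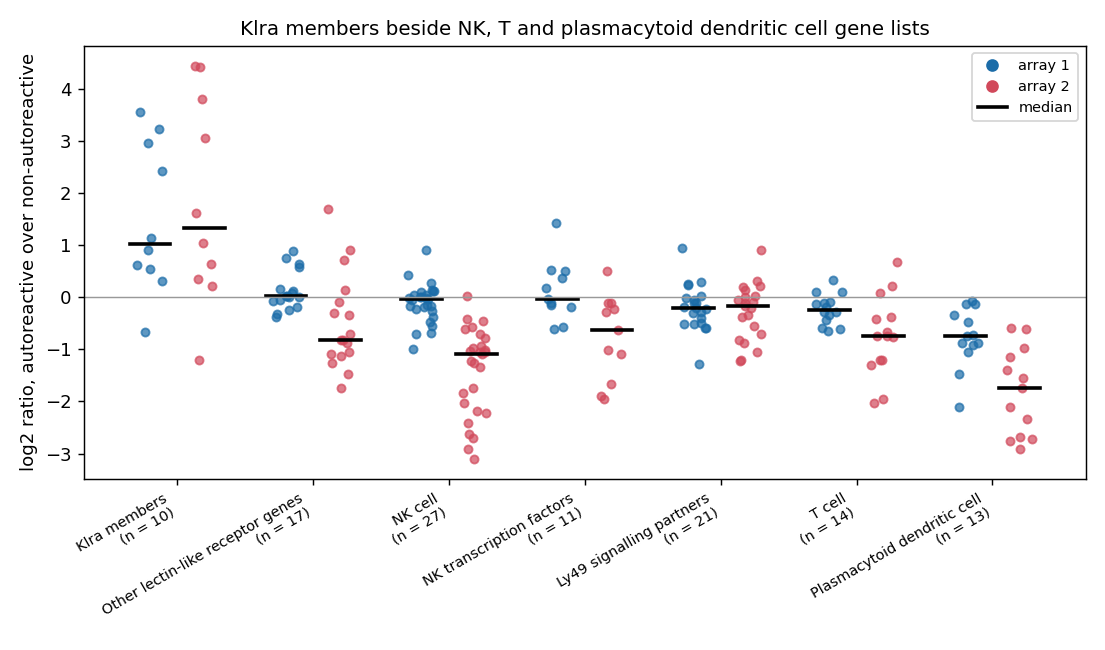
Log2 ratio of autoreactive over non-autoreactive cells (y axis) for the tested genes of 7 groups, each gene shown by its brightest probe on array 1 (blue) and array 2 (red), with black bars at the medians and n the number of genes. The medians of the Klra members are 1.03 and 1.33, while those of the NK cell genes are -0.03 and -1.08 and those of the plasmacytoid dendritic cell genes -0.73 and -1.74.

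Ratios for markers of other cells that such a sort can hold were below 0 or mixed. By limma's adjusted p 3.48% of all genes rose and 2.61% fell. Of 14 T cell genes 0 rose and 2 fell, with medians of -0.24 and -0.75, and 11 of the 14 means lay below 0. With both channels required to be well above background 9 T cell genes were tested, and 7 of the 9 lay below 0. Among chains of the T cell receptor complex, Cd3e had a mean of 0.16, Cd3d one of -0.38, Cd3g one of -0.54 and Cd247 one of -0.59, with limma adjusted p-values of 0.485, 0.245, 0.0978 and 0.0697. Cd3d, Cd3g and Cd247 were added after the values were seen. The plasmacytoid dendritic cell list had 13 tested genes, of which 0 rose and 4 fell, and its medians were -0.73 and -1.74. Siglech, a surface marker of these cells, had -0.87 and -2.77 (mean -1.82 ± 0.40, limma adjusted p = 0.0617). Of 13 myeloid genes 0 rose and 1 fell, with medians of 0.07 and -0.84, and 9 of the 13 lay above 0 on array 1. Of 9 erythroid genes 0 rose and 2 fell, with medians of -0.52 and -0.49. At an unadjusted limma p under 0.05, 9 T cell, 10 plasmacytoid dendritic cell, 4 myeloid and 6 erythroid genes were lower. By that measure 1 T cell gene was higher and 0 of the other 3 lists, where 12.0% of all genes were higher and 12.3% lower. The number called lower moved with the settings, from 0 to 2 for the myeloid list, 0 to 4 for the erythroid list, 0 to 6 for the T cell list and 3 to 6 for the plasmacytoid dendritic cell list. With median centring 8 myeloid, 2 erythroid, 2 T cell and 2 plasmacytoid dendritic cell genes passed as higher. The summed intensity of the plasmacytoid dendritic cell genes was 154516 and 175949 in the non-autoreactive cells and 94082 and 88286 in the autoreactive cells. That of the myeloid genes was 435562 and 601750 in the non-autoreactive cells and 525707 and 461462 in the autoreactive cells. The part of any of these cell types in the Klra values was not tested.

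Of 11 NK transcription factor genes tested 0 rose and 1 fell by limma's adjusted p, where 3.48% and 2.61% of all genes did. At an unadjusted limma p under 0.05, 1 was higher and 5 lower, where 12.0% and 12.3% of all genes were. With both channels required to be well above background 7 were tested, and 4 of the 7 means lay below 0. The gene that fell was Runx3, by 0.79 ± 0.15 (limma adjusted p = 0.0404). This call was lost without background correction, with the deposited ratios, without the filter on dim probes and with the mean over probes (-0.43), at limma adjusted p-values of 0.0538 to 0.112. Tcf7 (TCF-1), a factor known for its role at Ly49 genes, had -0.60 and -1.95 (mean -1.27 ± 0.30, limma adjusted p = 0.0704), and Tbx21 (T-bet) -0.04 and -1.89 (limma adjusted p = 0.216). With median centring 4 of the 11 passed as higher and 3, Tcf7 among them (limma adjusted p = 0.0133), as lower, and the list's median turned from -0.22 to 0.13, below the 0.58 of all genes.

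Among 21 genes that act downstream of Ly49 receptors, 1 rose and 3 fell by limma's adjusted p, where 3.48% and 2.61% of all genes did. At an unadjusted limma p under 0.05, 1 was higher and 8 lower, where 12.0% and 12.3% of all genes were. Plcg1, a phospholipase, rose by 0.93 ± 0.12 (limma adjusted p = 0.0139). Lat2, an adaptor also known from B cells, fell by 1.17 ± 0.13 (limma adjusted p = 0.00922), the adaptor Lat fell by 0.90 ± 0.17 (limma adjusted p = 0.0415), and the kinase Zap70, named here after its values were seen, fell by 0.74 ± 0.13 (limma adjusted p = 0.0353). With median centring Lat2 (-0.33) and Zap70 (-0.20) no longer passed, at limma adjusted p-values of 0.0801 and 0.252. The number that fell was 1 with median centring, with the deposited ratios and without the filter on dim probes. The call of Plcg1 was lost with the mean over probes (0.41, limma adjusted p = 0.108). Tyrobp, which encodes DAP12, the adaptor that activating Ly49 receptors need, read 10900 and 17982 in the non-autoreactive cells and 8243 and 7671 in the autoreactive cells. Its mean log2 ratio of -0.82 ± 0.21 did not pass (limma adjusted p = 0.0857), and with median centring it was 0.088. The list median was -0.21 on array 1 and -0.16 on array 2, and over both arrays it turned from -0.11 to 0.60 with median centring, close to the 0.58 of all genes.

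The values of the ligand genes depended on the scaling. Of 11 class I genes tested 1 rose and 0 fell by limma's adjusted p, where 3.48% and 2.61% of all genes did. At an unadjusted limma p under 0.05, 3 were higher and 1 lower, where 12.0% and 12.3% of all genes were. By the adjusted p, 0 rose with normexp offset 16 and with the deposited ratios. With median centring 10 rose, and the list's median went from -0.11 to 1.18 against 0.58 for all genes. B2m, the shared light chain, was the gene that rose, by 0.66 ± 0.12 (limma adjusted p = 0.0366), a call lost with normexp offset 16, with the deposited ratios (0.35) and with the mean over probes (0.25), at limma adjusted p-values of 0.0563 to 0.278. In the same fit H2-K1 had a mean of 0.47 ± 0.12 and H2-D1 one of -0.33 ± 0.12, with limma adjusted p-values of 0.0896 and 0.182. Both signs depended on the scaling, since H2-K1 stood at -0.093 with the deposited ratios and at 1.95 with median centring, and H2-D1 at 0.95 with median centring. The groups carry different H-2 alleles, and the part of allele differences under the H2 probes was not tested.

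No member probe changed sign under other ways of computing the ratios. The median member probe, at 1.26 over both arrays, stood at 1.19 without background correction and at 1.71 with median centring, where the median of all genes was 0.58. The Klra16 probe A_51_P434836 ranged from 4.23 to 5.33 over all alternatives, arrays alone included, and the Klra20 probe from -2.27 to -0.68.

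**Figure D5:**
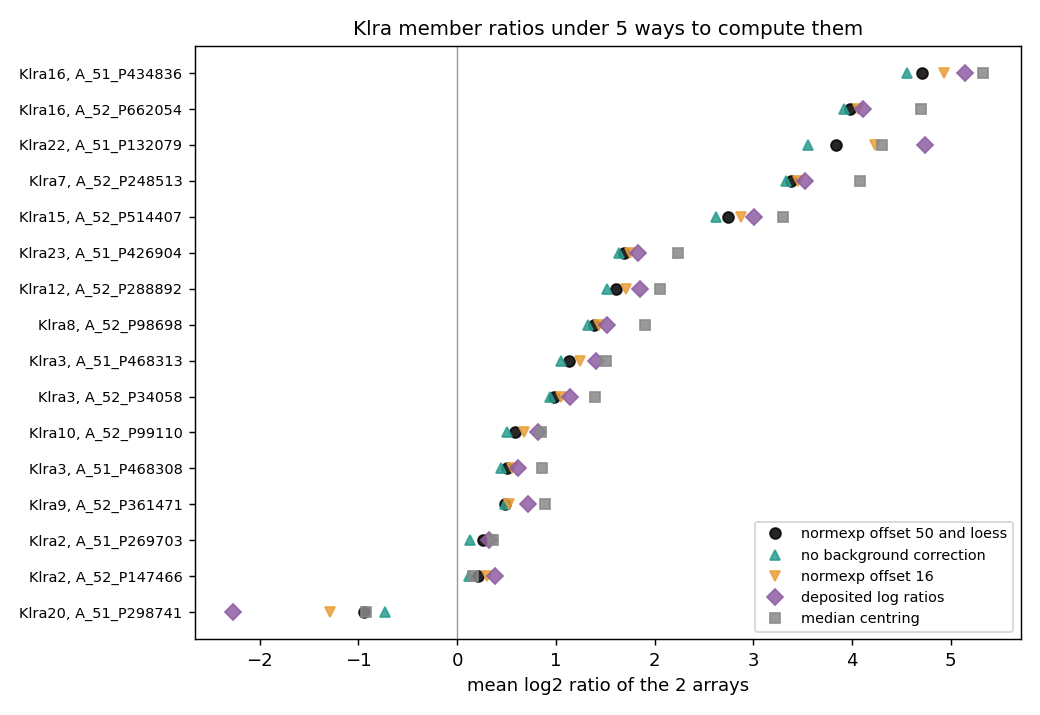
Mean log2 ratio of the 2 arrays (x axis) for the 16 tested member probes computed in 5 ways, namely normexp with offset 50 and loess (black circles), no background correction, normexp with offset 16, the deposited log ratios, and median centring. No probe changes sign, and the Klra20 probe moves most, from -0.94 to -2.27 with the deposited log ratios.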

How the data were processed

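RNA of sorted immature B cells was measured on 2 two-colour Agilent arrays on 1 slide. Spot and local background intensity in each channel were deposited as Agilent Feature Extraction 9.5.1.1 wrote them, according to the file headers. That program also made the deposited log10 ratios (Cy5 over Cy3), which the series' value table repeats (largest difference 5e-10).

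Background was corrected by normexp with an offset of 50, followed by loess within arrays, in limma 3.58.1 (R 4.3.3), without control and outlier spots. Channel levels were also scaled with Aquantile. A two-sided limma fit (lmFit, eBayes) set the log2 ratios against 0, and p-values were adjusted over all tested probes by Benjamini-Hochberg. A gene stands for its brightest probe. The procedure was tested on simulated data. The members, the gene lists and the rule for named genes (every member probe, up to 4 genes per list by size of ratio, a set of cell type markers, and the 5 nearest genes) were chosen with earlier results of these data known. Names came from RefSeq (GRCm38.p6), promoters from RefSeq windows. Probe positions come from the scanner files and have no stated build. Alternatives were other background corrections, the deposited ratios, median centring, other filters, the mean over probes, a trended variance and each array alone. Probe sequences were not used here. Figures were drawn with matplotlib 3.10.9.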

Additional observations from a re-analysis of the deposited data

How the results depend on the processing

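The 126 values of member probes under the alternatives all kept their sign, and 22 moved by more than the SD between arrays. Many of the 126 could not move that far. A changed filter leaves the ratio of a probe as it was. The ratios of each array alone make up the mean and lie within that SD of it by construction. The count of members 2-fold higher on both arrays, 5, ran from 4 to 6: 6 with the deposited ratios and with median centring, 5 and 6 on array 1 and array 2 alone, and 4 over probes named so in the files, an alternative chosen after seeing the data. Genes called higher numbered 526, with 395 lower. Median centring gave 9921 higher and 379 lower, with the median gene at 0.58, and the deposited ratios gave 296 higher and 309 lower. Without a filter on dim probes 244 were called lower, with more genes tested. Lectin-like genes called higher fell from 3 to 0 without that filter. Signalling partners called higher went from 1 to 13 with median centring and to 0 with the mean over probes. The causes were not tested. The NK list had 0 genes called higher in each setting run. With median centring the ratios of Klra13 (0.058), Tyrobp (0.088) and Klrb1c (0.061) turned positive, with limma adjusted p-values of 0.730, 0.691 and 0.792, as did Cd3d (0.12) and H2-D1 (0.95), at 0.535 and 0.00117. H2-K1 turned negative with the deposited ratios (-0.093, limma adjusted p = 0.739). Calls from 1 array could not be fitted, since no residual degree of freedom is left. No paired analysis was possible because the labels number the autoreactive pools only, and each ratio already pairs the channels of an array. Dim probes, Klra2 and Klra20 among them, are limited by their signal over background.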
